A study of Mus musculus with 10 samples.

Results

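The 10 genes described here encode antiviral restriction factors and related interferon-induced proteins. They are Mx1, Mx2, Bst2, Rsad2, Cmpk2, Samhd1, Ifi27, Ifi35, Ifi44 and Xaf1, chosen by symbol from the 34745 genes of the deposited table, where each symbol has 1 row. All 10 were among the 12666 genes that passed the filter on low counts. RNA was sequenced from Hepa1-6, a mouse hepatoma line, wild type per the labels. In 5 libraries the cells were untreated. In the other 5 they had spent 48 h with CD8+ T cells, the treatment the labels call CTL attack. Those T cells came from spleens of male C57/BL6 mice aged 6 to 8 weeks. They had been activated for 5 days with antibodies to CD3 and CD28, each used at 1 in 2000. Both groups grew in DMEM with 10% serum, and suspended cells were washed off with PBS before RNA extraction. The comparison asks how gene expression of the hepatoma cells differs after exposure to activated T cells. The labels do not say if the 5 libraries of a group were grown apart, and the p-values cover only the spread among them, which may be technical.

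Interferons bind cell-surface receptors whose signal switches on many genes through a short promoter sequence, the interferon-stimulated response element (ISRE). Some of the products block single steps of viral growth. MX proteins are dynamin-like GTPases that trap viral nucleocapsids, tetherin (Bst2) holds budding virions at the cell surface, viperin (Rsad2) makes a chain-terminating nucleotide, and SAMHD1 degrades the dNTPs that reverse transcription needs. Restriction factors are studied mainly in infection, but hepatocytes and hepatoma cells also make them in response to interferon.

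Totals were 12922263 to 17100662 counts per library. Of 12 hepatocyte and hepatoma markers, 5 could be tested. Krt8, a keratin of simple epithelia, fell from 1116 ± 90.5 to 938 ± 63.1 CPM (counts scaled to library total, not to gene length; SD, n = 5; edgeR adjusted p = 0.00790). Its partner Krt18 was not called (497 ± 33.7 and 482 ± 42.4 CPM; adjusted p = 0.626, edgeR). The oncofetal gene Afp fell by 0.36 in log2, from 1525 to 1162 summed counts (edgeR adjusted p = 0.00400). Apoa2 had 177 and 193 summed counts and was not called. Trf, the transferrin gene, rose from 2 to 274 summed counts (edgeR adjusted p = 3.76e-07). Several defining genes were absent or near it: Fgb had 0 counts in every library, and Alb, Apob and Hnf4a had 0 in untreated cells and 4, 3 and 1 after co-culture. Ttr had 3 and 6 summed counts, and Apoa1 had 6 and 3. None of 10 T cell markers could be tested, and Cd3e, Cd3d, Cd8a and Cd2 were at 0 everywhere. The 10 markers summed to 0.377 to 0.937 CPM in untreated and 1.23 to 1.71 CPM in co-culture libraries. Of 10 macrophage markers, 4 of 6 tested rose, against 17.4% of all tested genes. Among the 4 were Adgre1 (0.162 ± 0.102 to 3.66 ± 0.482 CPM) and Lyz2 (0.931 ± 0.250 to 18.2 ± 2.15 CPM). Cd68, at 25.1 ± 2.83 and 25.1 ± 1.51 CPM, and Mrc1 were not called (edgeR adjusted p = 0.968 and 0.0913). The sum of the 10 went from 58.4 to 65.1 CPM up to 91.3 to 109 CPM. None of these 10 was at 0 in every library.

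Most of these antiviral genes were lower after co-culture, and a pair did not pass the test. Of the 10, 8 fell and none rose, against 16.1% of all tested genes called lower and 17.4% called higher (edgeR quasi-likelihood test, adjusted p below 0.05). The 10 were chosen with earlier results of these data known, so the counts are a description. The falls ran from 1.79-fold for Ifi35 to 5.99-fold for Ifi44. At least 2-fold falls numbered 6 of the 10, against 1.58% of tested genes. In all 8 that fell, every co-culture library lay below every untreated one, which held for 11.1% of tested genes. The 10 log2 fold changes had a median of -1.52, that of all tested genes being 0.01. Ifi27 had been picked out as the stable gene with its value known, but Samhd1 did not pass either, and its fold change was the nearer to 0. Of the macrophage markers tested, 4 of 6 rose, and T cell markers were near 0 in the same libraries. The part of either in these falls was not tested. In bulk RNA, fewer expressing cells and less RNA per cell cannot be told apart.

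**Figure D1:**
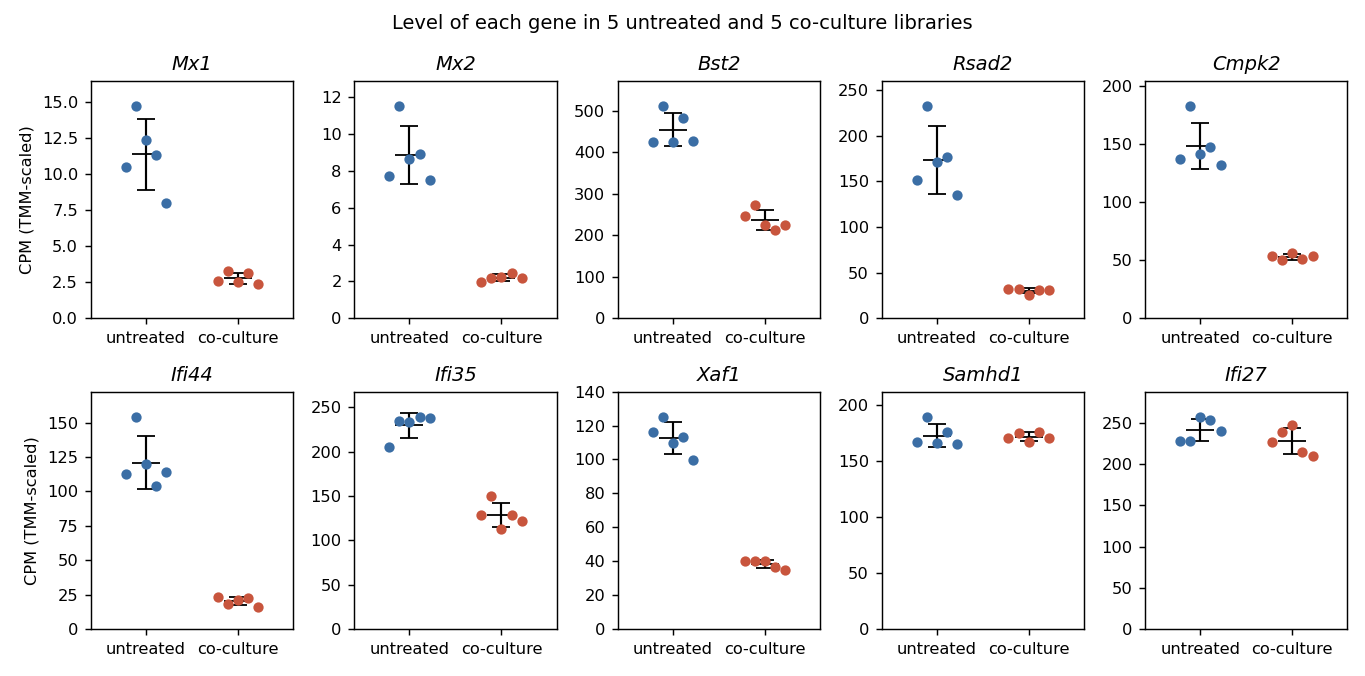
Level of each of the 10 genes in CPM, scaled by TMM, on linear axes from 0. Points are single libraries (5 untreated, 5 co-culture), and bars show the mean and SD. The groups are apart in 8 panels and overlap for Samhd1 and Ifi27.

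Promoter sequences show which of the 10 genes carry the letters of the response element near their start. RefSeq windows from 250 bases before to 50 after the start (build GRCm38.p6) were on hand for 7 of the 10, namely Bst2, Cmpk2, Ifi35, Ifi44, Rsad2, Samhd1 and Xaf1. The ISRE core was searched as GAAANNGAA on both strands. It was present in Bst2, Ifi44 and Rsad2, against 8.56% of 32851 promoters. A form with 1 free base, GAAANGAAA, was added after these sequences were seen. It was present in Ifi35, Ifi44 and Xaf1, and in 3.17% of promoters. Ifi35 and Xaf1 held this form alone. Because the form was picked with these windows in view, that contrast cannot show enrichment. Cmpk2, which fell, and Samhd1, which was not called, held neither form. The gamma-activated sequence TTCNNNGAA, a palindrome read on both strands, was present in Bst2, Ifi35 and Samhd1, against 8.30% of promoters. The windows below are the 5 that carry an ISRE core of either form, with Samhd1 as a gene that was not called. Capitals mark ISRE cores of either form. They are Bst2 at chr8:71537423-71537722 (minus strand), Rsad2 at chr12:26456403-26456702 (minus), Ifi44 at chr3:151749861-151750160 (minus), Ifi35 at chr11:101448162-101448461 (plus), Xaf1 at chr11:72301379-72301678 (plus) and Samhd1 at chr2:157135047-157135346 (minus).
Bst2: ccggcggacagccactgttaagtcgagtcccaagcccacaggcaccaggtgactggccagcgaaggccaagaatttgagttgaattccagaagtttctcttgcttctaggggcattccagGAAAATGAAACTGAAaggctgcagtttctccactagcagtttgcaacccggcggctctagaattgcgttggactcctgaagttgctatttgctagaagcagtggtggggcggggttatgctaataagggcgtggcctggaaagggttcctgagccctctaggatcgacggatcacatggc
Rsad2: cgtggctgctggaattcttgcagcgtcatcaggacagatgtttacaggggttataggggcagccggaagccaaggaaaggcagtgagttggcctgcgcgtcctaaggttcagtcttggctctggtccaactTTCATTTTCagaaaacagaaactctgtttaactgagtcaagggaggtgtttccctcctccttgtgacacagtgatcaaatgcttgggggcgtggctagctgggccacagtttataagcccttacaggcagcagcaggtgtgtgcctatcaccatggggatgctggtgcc
Ifi44: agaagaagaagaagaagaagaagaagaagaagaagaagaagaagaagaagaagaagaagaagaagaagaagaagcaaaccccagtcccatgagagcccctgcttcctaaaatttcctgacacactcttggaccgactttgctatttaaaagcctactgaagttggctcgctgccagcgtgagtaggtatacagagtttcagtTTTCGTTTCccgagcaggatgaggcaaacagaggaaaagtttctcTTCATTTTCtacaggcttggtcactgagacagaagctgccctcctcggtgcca
Ifi35: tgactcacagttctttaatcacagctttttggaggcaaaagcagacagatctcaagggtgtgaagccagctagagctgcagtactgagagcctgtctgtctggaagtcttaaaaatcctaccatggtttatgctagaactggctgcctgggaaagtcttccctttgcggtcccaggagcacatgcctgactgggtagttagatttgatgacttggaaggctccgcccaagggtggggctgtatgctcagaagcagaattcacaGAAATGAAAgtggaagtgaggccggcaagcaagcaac
Xaf1: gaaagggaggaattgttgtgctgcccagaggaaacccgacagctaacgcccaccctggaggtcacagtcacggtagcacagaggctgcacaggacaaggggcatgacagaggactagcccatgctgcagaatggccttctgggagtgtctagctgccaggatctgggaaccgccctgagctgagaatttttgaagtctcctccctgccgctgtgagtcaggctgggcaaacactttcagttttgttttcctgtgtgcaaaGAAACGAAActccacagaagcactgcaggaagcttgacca
Samhd1: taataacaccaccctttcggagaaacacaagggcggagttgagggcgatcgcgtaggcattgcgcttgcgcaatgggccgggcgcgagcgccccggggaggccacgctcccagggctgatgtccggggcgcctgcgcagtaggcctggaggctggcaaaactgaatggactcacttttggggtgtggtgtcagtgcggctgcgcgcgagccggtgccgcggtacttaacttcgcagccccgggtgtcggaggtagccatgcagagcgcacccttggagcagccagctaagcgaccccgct
In Bst2 a pair of overlapping cores lies 130 and 124 bases before the start, and in Rsad2 a single core lies 119 bases before it. In Ifi44 the cores lie 48 and 3 bases before the start, and in Ifi35 and Xaf1 the single core lies within the first 50 bases after it. These starts are those of RefSeq and can differ from the deposited gene positions printed here. The deposited position of Ifi44 takes in both of its cores. A match is a description of the letters and not of binding, which was not measured here.

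The Mx genes, Mx1 and Mx2, were the lowest of the set and fell about equally. Mx1 lies at chr16:97447035-97462907 on the minus strand (mm10). It had 169, 208, 209, 181 and 106 counts in untreated replicates 1 to 5 and 40, 53, 33, 46 and 37 after co-culture. The highest co-culture library thus held less than every untreated one by a wide margin. Scaled, Mx1 went from 11.4 ± 2.46 to 2.79 ± 0.387 CPM (SD, n = 5 each), which is 4.07-fold lower (log2 fold change -2.03, SE 0.163; edgeR adjusted p = 1.02e-06). Mx2, at chr16:97535308-97560900 on the plus strand, had 124, 163, 146, 143 and 100 counts in untreated libraries. After co-culture it had 30, 36, 29, 36 and 34, and no library of one group reached the range of the other. Its level went from 8.87 ± 1.59 to 2.21 ± 0.182 CPM (n = 5), 4.0-fold lower (95% interval of the log2 fold change -2.30 to -1.70; edgeR adjusted p = 3.31e-07). GENCODE M21 lists Mx2 as a polymorphic pseudogene, a gene that is broken in the reference strain but intact in some others, and Mx1 as protein coding. Many laboratory strains also carry a defective Mx1, and which alleles Hepa1-6 carries was not examined. At such low levels the fold depends on the scale: on log2(FPKM + 1) with limma the differences were -1.02 for Mx1 and -0.91 for Mx2.

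MX proteins belong to the dynamin superfamily. Of 10 of its genes outside the interferon response, 9 were tested, 1 fell, 1 rose and 7 did not pass, with a median log2 fold change of 0.10. Those counts are close to the shares of all tested genes, 16.1% lower and 17.4% higher. Dnm2, the dynamin of clathrin-mediated endocytosis in most tissues, was at 191 ± 13.3 and 191 ± 9.88 CPM (n = 5, edgeR adjusted p = 0.998). Mfn2, which fuses mitochondria, was at 93.2 ± 4.11 and 91.2 ± 7.52 CPM (edgeR adjusted p = 0.738). Atl3, a GTPase that shapes the endoplasmic reticulum, fell by 0.22 in log2 (edgeR adjusted p = 0.0157), a call lost with library totals as the only scaling (adjusted p = 0.0507), with the replicate number as a block (adjusted p = 0.0589) and with limma on FPKM (adjusted p = 0.0579 and 0.0577). Atl2 rose by 0.25 (edgeR adjusted p = 0.0327), a call lost when any 1 of untreated replicates 3, 4 and 5 or co-culture replicates 1, 4 and 5 was left out.

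Bst2 was the most abundant of the set per gene length. Tetherin is a membrane protein anchored at both ends, and in mice it is also known as PDCA-1, a marker of plasmacytoid dendritic cells. The gene lies at chr8:71534264-71537437 on the minus strand. In untreated replicates 1 to 5 it was at 426, 511, 426, 484 and 427 CPM, and after co-culture at 246, 273, 225, 214 and 225 CPM. The lowest untreated library was well above the highest co-culture library. The mean went from 455 ± 39.9 to 236 ± 23.5 CPM (n = 5), or -0.94 in log2 with an SE of 0.0742 (edgeR adjusted p = 8.47e-07). Of 4 markers of plasmacytoid dendritic cells, Siglech and Ccr9 had 0 counts in every library. Cox6a2 had 59 counts in untreated and 10 in co-culture libraries, and Spib, a transcription factor also made by B cells, rose from 3.37 ± 0.669 to 6.25 ± 0.747 CPM. The 4 markers summed to 2.79 to 4.98 CPM in untreated and 5.44 to 7.20 CPM in co-culture libraries, and their part in the level of Bst2 was not tested.

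Rsad2 and Cmpk2 lie side by side on chromosome 12 and point away from each other, with 12.8 kb between them. Viperin, the product of Rsad2, is a radical SAM enzyme with an iron-sulfur cluster that turns CTP into an antiviral nucleotide, and CMPK2 is a mitochondrial nucleotide kinase that can supply CTP. Rsad2, at chr12:26442753-26456452 on the minus strand, was at 151, 232, 171, 177 and 135 CPM in untreated replicates 1 to 5. After co-culture it was at 31.7, 31.9, 25.5, 30.9 and 30.7 CPM. All co-culture libraries lay far below the lowest untreated one, and replicate 3 stood below the other 4. Its mean went from 173 ± 36.9 to 30.1 ± 2.63 CPM (n = 5), or -2.52 in log2 with an SE of 0.128 (edgeR adjusted p = 1.62e-08). Cmpk2, at chr12:26469204-26479835 on the plus strand, was at 137, 182, 141, 147 and 132 CPM and then at 53.2, 50, 56.2, 50.7 and 53.1 CPM. Its groups did not overlap either, and its mean went from 148 ± 20.1 to 52.6 ± 2.46 CPM (n = 5). Cmpk2 was thus 2.81-fold lower (log2 -1.49, SE 0.0809; edgeR adjusted p = 3.00e-08).

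The neighbours on chromosome 12 thus fell by unequal amounts, while the ratio of those on chromosome 16 had nearly the same mean in both groups. The FPKM ratio of Rsad2 to Cmpk2 within a library was 0.770 ± 0.0664 without T cells and 0.380 ± 0.0471 with them (SD, n = 5). The difference of -1.02 on the log2 scale had p = 0.00794 in a two-sided exact permutation test, the smallest that 252 arrangements allow (adjusted p = 0.0159 over 2 ratios). The Mx1 to Mx2 ratio was 1.23 ± 0.135 and 1.22 ± 0.149, a log2 difference of -0.02 (exact permutation p = 0.873, adjusted p = 0.873). Both ratios were chosen for position or family, after the values had been seen.

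**Figure D2:**
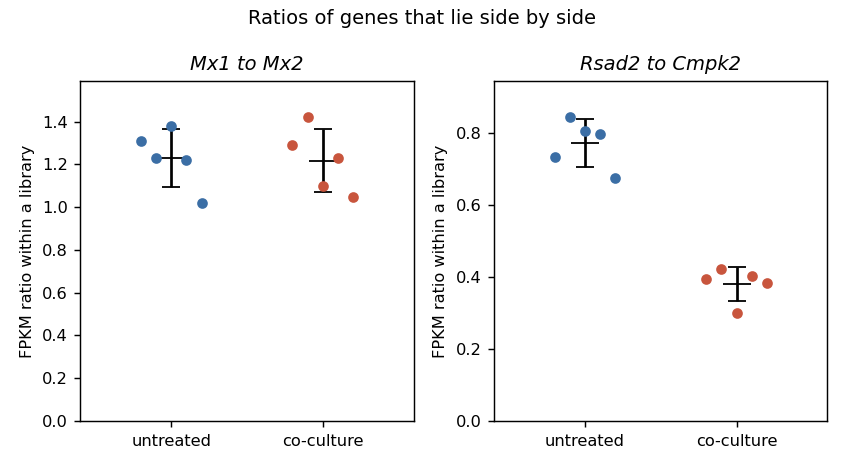
FPKM of 1 gene divided by that of the other within each library, on linear axes from 0; points are libraries, bars the mean and SD (n = 5). The Mx1 to Mx2 ratios overlap between groups (1.02 to 1.38 and 1.05 to 1.42), and the Rsad2 to Cmpk2 ratios do not (0.674 to 0.842 and 0.300 to 0.422).

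Of 8 listed genes that load iron-sulfur clusters onto cytosolic enzymes such as viperin, 5 were found and tested, with 1 fall and a median of 0.02. A single fall among 5 is near the 16.1% of all tested genes that were lower. Ciao1 was at 96.7 ± 5.86 and 98.9 ± 2.62 CPM, Mms19 at 103 ± 8.35 and 100 ± 6.02 CPM, and Nubp2 at 80.4 ± 6.79 and 81.8 ± 5.58 CPM (n = 5). Ciapin1 fell by 0.31 in log2 (edgeR adjusted p = 0.00441).

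Ifi44, Ifi35 and Xaf1 encode cytoplasmic or nuclear proteins that are widely used as readouts of interferon. Ifi44, at chr3:151730922-151749960 on the minus strand, was first described in microtubular aggregates of infected chimpanzee liver. It was at 113, 154, 120, 104 and 114 CPM in untreated replicates 1 to 5 and at 23.2, 17.8, 21.2, 22.6 and 16.1 CPM after co-culture. The gap between the groups was wider than the range within either. The log2 fold change of -2.58 ± 0.122 (edgeR adjusted p = 9.84e-09) was the largest of the 10. Its relative Ifi44l had 19 summed counts in untreated libraries and 0 after co-culture, too few to test.

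Ifi35, at chr11:101448407-101458698 on the plus strand, makes a leucine zipper protein that pairs with NMI. It was at 205, 235, 233, 239 and 238 CPM in untreated replicates 1 to 5 and at 129, 150, 113, 129 and 122 CPM after co-culture. Untreated replicate 1 stood below the other 4. This was the smallest fall of the 8, and the groups did not overlap, from 230 ± 14.0 to 129 ± 13.7 CPM (n = 5). The log2 fold change was -0.84 (SE 0.0705, edgeR adjusted p = 1.61e-06). The partner gene Nmi fell as well, from 49.2 ± 5.36 to 34.6 ± 2.47 CPM (edgeR adjusted p = 3.68e-04). Ifi35 ends 0.047 kb from Vat1 on the other strand and overlaps the antisense gene Gm11626, which held 33 counts over all 10 libraries. Whether counting used strand is not stated, so reads of such partners cannot be told apart.

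Xaf1 encodes a partner of the caspase inhibitor XIAP and lies at chr11:72301629-72313733 on the plus strand. It was at 116, 125, 110, 113 and 99.6 CPM in untreated replicates 1 to 5. After co-culture it was at 40.1, 40.3, 39.9, 36.4 and 35.0 CPM, and its narrow groups lay far apart. The mean went from 113 ± 9.34 to 38.3 ± 2.47 CPM (n = 5), or -1.56 in log2 with an SE of 0.0670 (edgeR adjusted p = 5.13e-09).

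**Figure D3:**
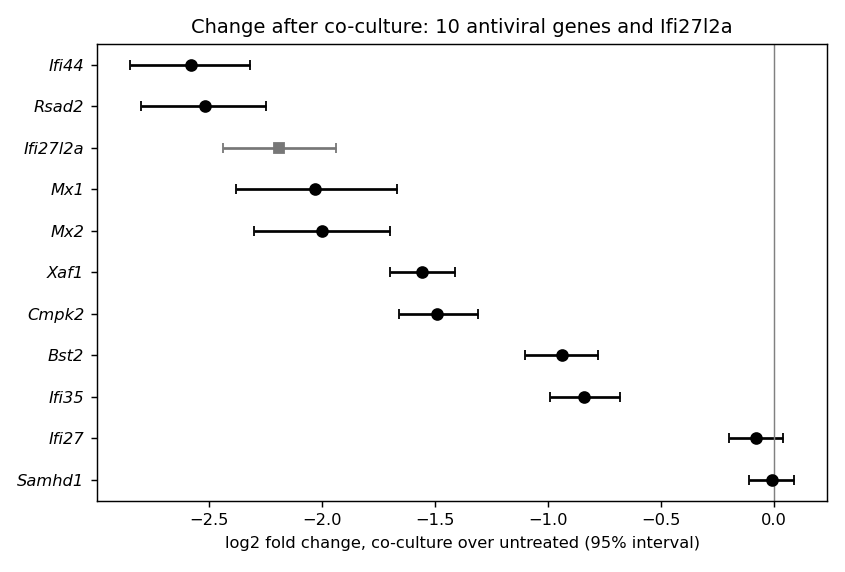
log2 fold change, co-culture over untreated, with its 95% interval from the edgeR fit (n = 5 per group) for the 10 genes (circles) and Ifi27l2a (square). The intervals of Ifi27 and Samhd1 include 0, and the others lie between -2.85 and -0.68.

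Samhd1 and Ifi27 did not pass the test. Samhd1, the dNTP triphosphohydrolase, lies at chr2:157097533-157135265 on the minus strand. It was at 167, 189, 166, 176 and 165 CPM in untreated replicates 1 to 5 and at 170, 175, 167, 176 and 170 CPM after co-culture. The untreated range enclosed the whole co-culture range, with untreated replicate 2 the highest of all 10. The log2 fold change of -0.01 ± 0.0463 (edgeR adjusted p = 0.887) has a 95% interval of -0.11 to 0.09, or -7.37% to 6.39%. Of 12 other genes of dNTP supply, 6 rose and 1 fell, with a median of 0.23, against 17.4% of all tested genes higher and 16.1% lower. Rrm1 and Rrm2, which encode subunits of ribonucleotide reductase, rose from 170 ± 6.10 to 277 ± 4.80 CPM and from 82.8 ± 6.48 to 132 ± 6.23 CPM (n = 5, adjusted p = 3.48e-08 and 2.20e-06, edgeR). Rrm2b, of the same list, was not called (16.3 ± 3.38 and 13.9 ± 1.58 CPM, edgeR adjusted p = 0.225). Dut, which removes dUTP, was at 141 ± 8.19 and 132 ± 8.58 CPM (adjusted p = 0.179 with edgeR). Cmpk1, the cytosolic UMP-CMP kinase, fell by 0.29 in log2 (edgeR adjusted p = 0.0130).

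Ifi27 encodes a small hydrophobic protein of mitochondria and the nuclear envelope and lies at chr12:103434211-103440239 on the plus strand. It was at 228, 228, 257, 254 and 240 CPM in untreated replicates 1 to 5 and at 227, 239, 248, 215 and 210 CPM after co-culture. The ranges overlapped, with the 2 lowest libraries both in co-culture. The log2 fold change was -0.08 (SE 0.0566, edgeR adjusted p = 0.296), with a 95% interval of -0.20 to 0.04, or -13.2% to 2.82%. Its relative Ifi27l2a, whose 3′ end faces that of Ifi27 at 1.93 kb, was lower. Ifi27l2a was at 58.7, 67.6, 54.5, 58.0 and 62.7 CPM in untreated libraries and at 14.7, 17.1, 11.5, 11.5 and 11.2 CPM after co-culture. No library of one group came near the other, and the log2 fold change was -2.19 (SE 0.117, edgeR adjusted p = 2.52e-08). The third gene of the family in mice, Ifi27l2b, had 0 counts in every library. Since Ifi27 was singled out by its value, its contrast with the other genes is a description with no test.

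**Figure D4:**
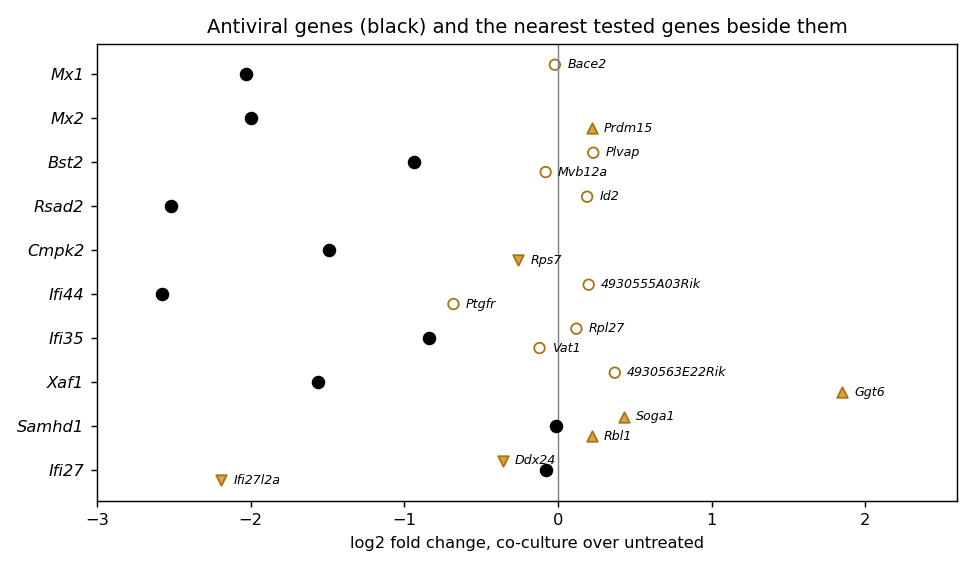
log2 fold change, co-culture over untreated, of the 10 antiviral genes (black) and of the nearest tested gene on either side (orange, offset; triangles point up or down where called, open circles were not called). Of 16 neighbours outside the set, Ifi27l2a alone lies near -2, and the neighbours that fell otherwise are Rps7 and Ddx24.

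The nearest tested genes on either side lay 0.047 to 2151 kb from their antiviral gene, so not all are adjacent. Of 16 such genes outside the set, 3 fell, 4 rose and 9 did not pass. These shares are near those of all tested genes, 16.1% lower and 17.4% higher. Bst2 lies 5.49 kb from Mvb12a, an ESCRT-I subunit (78.5 and 74.1 CPM, edgeR adjusted p = 0.491), and 22.5 kb from Plvap, an endothelial diaphragm gene at 5.65 and 6.67 CPM (adjusted p = 0.298). Beside Ifi35, Vat1 was at 611 and 562 CPM (edgeR adjusted p = 0.146) and the ribosomal gene Rpl27 at 65.8 and 71.6 CPM (adjusted p = 0.245). Beside Mx1, the protease gene Bace2 was at 3.63 and 3.58 CPM (edgeR adjusted p = 0.928). Samhd1 lies between Soga1, which rose by 0.43, and the pocket protein gene Rbl1, which rose by 0.22 (edgeR adjusted p = 2.18e-05 and 0.0433). On the other side of Ifi27 from Ifi27l2a, the helicase gene Ddx24 fell by 0.36. Ggt6, 122 kb from Xaf1, rose from 0.612 to 2.22 CPM. Prdm15, 231 kb from Mx2, rose by 0.22 (edgeR adjusted p = 0.0281), and Rps7 fell by 0.26 but lies 2151 kb from Cmpk2. Without 1 library, the call of Prdm15 was lost for untreated replicates 1, 2 and 3 and co-culture replicates 1, 3, 4 and 5 (edgeR adjusted p up to 0.0836). That of Rbl1 was lost for untreated replicates 3, 4 and 5 and co-culture replicates 1, 3, 4 and 5 (up to 0.107).

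Per gene length, the order of levels changed between the groups. In untreated cells Bst2 led at 588 ± 51.8 FPKM (fragment counts scaled to gene length and library total), followed by Ifi27 at 93.1 ± 4.63 and Ifi35 at 75.5 ± 4.05. Cmpk2 at 45.6 ± 6.37 and Rsad2 at 35.4 ± 7.65 FPKM overlapped in range, as did Xaf1 at 19.3 ± 1.72 with Ifi44 at 15.9 ± 2.61, and Ifi44 with Samhd1 at 14.7 ± 0.899. Mx1 at 2.14 ± 0.470 and Mx2 at 1.73 ± 0.315 FPKM also overlapped and came last. After co-culture Bst2 still led at 313 ± 27.2 FPKM, and Samhd1, at 15.0 ± 0.362 FPKM, was 5th in the order. Its range overlapped that of Cmpk2, which came just above at 16.6 ± 0.874 FPKM. Rsad2 at 6.30 ± 0.548 and Ifi44 at 2.72 ± 0.433 FPKM stood below Samhd1, and Mx1 and Mx2 were at 0.535 ± 0.0706 and 0.441 ± 0.0376 FPKM. The highest gene held 340 times the FPKM of the lowest in untreated cells and 709 times after co-culture. These FPKM divide by gene lengths that the authors set, from 764 bases for Bst2 to 11576 for Samhd1 as the counts imply.

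Within the untreated group, replicate 2 was the highest for 7 of the 8 genes that fell, with a median of 0.34 above the group mean on the log2 scale, and replicate 5 was the lowest for 5 of the 8. Ifi35 was the gene highest elsewhere, in replicate 4. Samhd1, which was not called, was also highest in replicate 2, by 0.13, and lowest in replicate 5. It was not counted how often these replicates were highest or lowest over all tested genes. The pattern thus cannot be called particular to the genes that fell. Rsad2 and Mx1 varied most in untreated cells, with coefficients of variation of 21.3% and 21.6%, and Ifi27 and Samhd1 least, with 5.73% and 5.85%. In co-culture, replicate 2 was the highest for 5 of the 8 with a median of 0.08. Without untreated replicate 2 the same count of 8 genes was called lower.

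**Figure D5:**
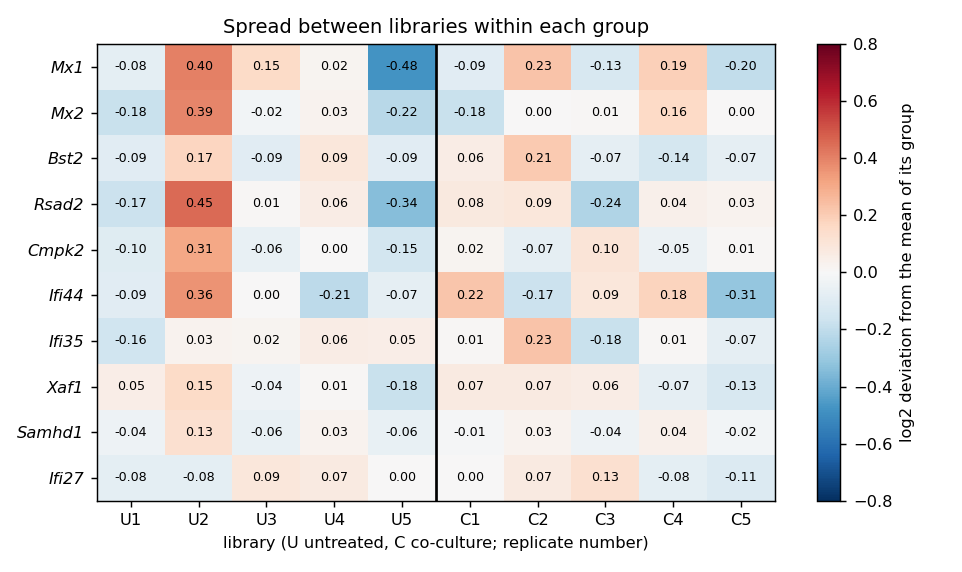
Deviation of each gene's log2 CPM from the mean of its own group, by library (U untreated, C co-culture, with the replicate number). Untreated replicate 2 stands out as the red column, with a deviation of 0.45 for Rsad2, and Samhd1 and Ifi27 are pale throughout.

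The genes with the most similar profile were interferon-linked as well. Likeness was the root-mean-square distance over 10 libraries between a gene's centred log2 CPM and the mean of the antiviral genes other than Ifi27, among 10302 genes outside the set with at least 5 CPM. Most of the antiviral genes fell, so this measure picks genes that fell, and the falls given next are set by that choice. Among the 5 nearest, Usp18, a protease that removes ISG15, went from 154 to 46.3 CPM. Oas3, which makes the activator of RNase L, went from 395 to 146 CPM. The apolipoprotein L genes Apol9b and Apol9a, near-identical copies whose split is uncertain, went from 241 to 81.3 and from 197 to 69.2 CPM. Xaf1 and Cmpk2 were the members nearest that mean profile, at 0.0791 and 0.0866, but both are part of that mean. Samhd1, also part of it, was at 0.772, and the median of the genes compared was 0.797.

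Other interferon-linked antiviral genes fell too. Of 29 listed, 28 were found and 25 tested, of which 22 fell, none rose and 3 did not pass, against 16.1% of all tested genes lower. Their median log2 fold change was -0.83, and 9 were at least 2-fold lower. This list too was chosen with earlier results of these data known. The most abundant were the IFITM genes, which hinder viral entry at membranes. Ifitm3 went from 1761 ± 95.5 to 1005 ± 66.8 CPM, Ifitm1 from 574 ± 27.1 to 413 ± 36.0 CPM and Ifitm2 from 499 ± 33.8 to 418 ± 39.7 CPM (n = 5, adjusted p = 2.36e-07, 5.62e-05 and 0.00996, edgeR). Phf11d, a PHD finger gene, fell by 2.31 on the log2 scale, the most of the 25. The exceptions were Apobec3, a cytidine deaminase that mutates retroviral DNA, at 220 ± 12.2 and 208 ± 14.1 CPM, the helicase gene Mov10 at 204 ± 12.0 and 187 ± 8.92 CPM, and Pml at 85.3 ± 5.98 and 80.4 ± 4.36 CPM (n = 5, edgeR adjusted p = 0.284, 0.0786 and 0.286). Upstream, of 15 genes of interferon signalling 6 fell and 4 rose, with a median of -0.10. Among all tested genes, 16.1% were lower and 17.4% higher. Falls of at least 2-fold numbered 4 of the 15, Usp18 among them, against 1.58% of tested genes. Irf9, a transcription factor of the interferon response, fell by 0.81, while the receptor kinase gene Jak1 was at 272 ± 18.9 and 275 ± 11.7 CPM (edgeR adjusted p = 0.849).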

How the data were processed

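The deposited table holds 34745 genes with whole-number counts and FPKM in 10 columns each, per the file headers, and no value column was left unused. The authors' counts are not normalized, and their FPKM are scaled to gene length and library total. RSEM 1.2.8, HISAT2 2.1.0, Bowtie2 2.2.5 and the build mm10 are listed in the submitters' processing notes with no role. For the annotation release and strand, the sources used here give nothing. Of the identifiers, 98.6% are in GENCODE M21, and 80.8% of those have the same position there; gene positions printed are those of the deposited table.

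Over 20 pairs of replicates the chi-square per degree of freedom was 6.67 to 15.1, so each library was kept as 1 replicate. Counts were tested with edgeR 4.0.16 in R 4.3.3 (filterByExpr, TMM, quasi-likelihood F test, two-sided, Benjamini-Hochberg over 12666 genes), which was also tested on simulated data. CPM are TMM-scaled. Standard errors and 95% intervals were derived from F and the fold change. Alternatives used DESeq2 1.42.0, limma 3.58.1 on log2(FPKM + 1) and log2(FPKM + 0.1), other scalings and filters, and each library left out. The ratios within a library were compared by exact permutation tests in SciPy 1.17.1.

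The 10 genes and all lists were chosen with earlier results of these data known. Named beside the 10 were the 3 most abundant tested genes of each list, the Ifi27 family, the nearest tested neighbours and the 5 most similar profiles; some genes that this rule names are not reported here. Other genes were named after their values were seen. A count of 0 allows up to 3 counts, or 0.175 to 0.232 CPM depending on the library, covering counting error only. No batch is given in the labels.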

Additional observations from a re-analysis of the deposited data

Results flagged for a closer look

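Single libraries stood apart from the other 4 of their group, beyond Dixon's limit for 5 samples (0.710 of the range), in 5 of 104 groups of values, where chance flags about 1 in 20. Rsad2 was lowest in co-culture replicate 3, at 25.5 CPM against 30.7 to 31.9 CPM in the others. Ifi35 was lowest in untreated replicate 1, at 205 CPM against 233 to 239 CPM. Vat1 was highest in co-culture replicate 2, at 617 CPM against 537 to 559 CPM. Ciao1 was highest in the same library, at 103 CPM against 96.9 to 98.4 CPM. Cd68, a macrophage marker, was highest in untreated replicate 5, at 30.0 CPM against 23.0 to 24.3 CPM.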

How the results depend on the processing

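Each of the 10 antiviral genes kept its direction or its failure to pass under all 18 alternatives, with 8 lower and 0 higher in every one, and the log2 fold change of Samhd1 lay between -0.03 and 0.02 and that of Ifi27 between -0.12 and -0.05. Mx1 and Mx2 had low FPKM, so their change depended on the constant added. It was -1.02 and -0.91 on log2(FPKM + 1) and -1.80 and -1.75 on log2(FPKM + 0.1). With edgeR on counts and 1 library left out, it was -2.13 to -1.92 for Mx1 and -2.06 to -1.89 for Mx2. Over all tested genes the replicate numbers showed no pairing (correlation of same-numbered deviations -0.0986 to 0.0507, 1 of 5 numbers matched best). This cannot show that the libraries were unpaired. With the numbers as a block 8 of the 10 still fell. The block took the lower count of the dynamin list to 0 and the higher count of the neighbours to 2. The lower count of the dynamin list was also 0 with library totals and with limma on both FPKM scales, and its higher count 0 without the low-count filter, against 1 each. The higher count of the iron-sulfur list was 1 in place of 0 with library totals and with limma on both scales, and that of the neighbours 2 in place of 4 without the low-count filter. Leaving out 1 library, the higher count ran from 0 to 2 for the dynamin list, 2 (without co-culture replicate 2) to 5 for interferon signalling and 2 to 4 for the neighbours. The lower count of the dNTP list ran from 1 to 2 (without co-culture replicate 2). The log2 difference of the Mx1 to Mx2 ratio then ran from -0.09 to 0.03 and that of Rsad2 to Cmpk2 from -1.07 to -0.94. Library totals moved the median of all genes from 0.01 to 0.04, and the share of calls that were lower from 48.1% to 39.7%. With the stricter core GAAACNGAA, 1 of 7 promoters matched in place of 3. The causes were not tested.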
